A study of Mus musculus with 12 samples.

Results

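Livers of mice that ate a high-fat diet containing an ethanol extract of chrysanthemum leaves (CLE) were compared with livers of mice on a normal diet (ND), to see which liver functions stayed away from the ND level although the extract was eaten. The members of the comparison are the 3 CLE and the 3 ND livers named by the sample labels, 6 of the 12 livers in the study, and 11566 genes were tested in it. All mice were males of the inbred strain C57BL/6J, housed singly, and ate their diet from the age of 5 weeks for 16 weeks. Livers were taken at 21 weeks of age after a fast. The extract, from leaves of Chrysanthemum morifolium Ramat, made up 1.5% (w/w) of the CLE diet. The other groups of 3 livers ate the high-fat diet alone (HFD) or with 0.003% (w/w) luteolin, a flavone of the leaves (LU). The methods call the 3 livers of each group representative ones of a larger group, without saying how they were picked. No mice ate ND with the extract, so fat and extract cannot be told apart in CLE against ND, and HFD values are given beside the CLE values where they help to read them. The mice are separate animals, named here by the numbers in their labels (ND 2, 3 and 4, and CLE 2, 4 and 11).

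The liver makes cholesterol and fatty acids, turns cholesterol into bile acids, packs lipids into lipoproteins and stores what is left as triglyceride in lipid droplets. When sterol is plentiful, the transcription factor SREBP2 is held inactive and the genes of cholesterol synthesis are turned down, while LXR turns on genes that pump sterols out and the gene of SREBP1c. Long feeding with fat is known for fat storage in hepatocytes, shifts in drug-metabolizing enzymes and, in advanced cases, inflammation and scar matrix made by stellate cells.

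Of the 11566 genes, 3119 (27.0%) differed between CLE and ND at an adjusted p below 0.05 (limma on log2(FPKM + 1), Benjamini-Hochberg), 2416 (20.9%) higher and 703 (6.08%) lower in CLE. FPKM values are fragment numbers corrected for transcript length and for library size. The median log2 fold change over all genes was 0.16 with the values as deposited and 0.02 after median-of-ratios scaling, which turned the split to 1219 higher (10.5%) and 1618 lower (14.0%). Calls made in the same direction with the deposited values and under all 4 other scalings (median-of-ratios, quantile, equal summed FPKM and a correction for GC content) numbered 518 higher (4.48%) and 633 lower (5.47%). Such calls are described below as held under all scalings, and the counts of each gene list are to be read against these percentages. Each of the 4 scalings lowered the median log2 fold change, to between 0.0009 and 0.04. Over all genes, 633 of the 703 lower calls held, but only 518 of the 2416 higher calls. Lower calls thus held more often than higher ones whatever the list, and holding is weaker evidence for a fall than for a rise. Across 7171 genes, transcript GC content and the distance of a library from the mean of all 12 had a Spearman correlation, given as a description, that ran from −0.41 to −0.23 in the ND livers and from 0.19 to 0.51 in the CLE livers, with CLE mouse 4 at the top. In the HFD livers it ran from −0.40 to −0.13, and in the LU livers from 0.24 to 0.42. It was thus negative in every ND and HFD liver and positive in every CLE and LU liver. Results of CLE against HFD and of HFD against ND are given below from the deposited values alone. Whether those calls hold under the other scalings or without single livers is not reported here. CLE mouse 4 also had the largest summed FPKM of the ribosomal-RNA-like rows ART2 and TAR1-C. Leaving out ND mouse 4 lowered the number of calls to 1594, and leaving out CLE mouse 4 lowered the number of genes called lower to 286. Albumin was listed at 0 in all 6 livers, and of the 6 hepatocyte markers chosen only Cps1 differed. Summed FPKM of macrophage markers was 51.3 to 52.3 in ND and 77.9 to 96.2 in CLE livers, of endothelial markers 63.4 to 74.8 and 86.2 to 98.7, and of stellate cell markers 69.3 to 98.8 and 118 to 176. Clec4f, Clec4g and Dcn made up most of these sums. Of the tested markers, 2 of 4, 2 of 5 and 3 of 5 were called higher, while Timd4, Lyve1, Kdr, Lrat and Reln overlapped between groups. The sums use the deposited values, whose median-of-ratios factors were 0.89 to 0.96 in ND and 1.02 to 1.05 in CLE livers. In whole liver, more cells of a type and more RNA per cell cannot be told apart.

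**Figure D1:**
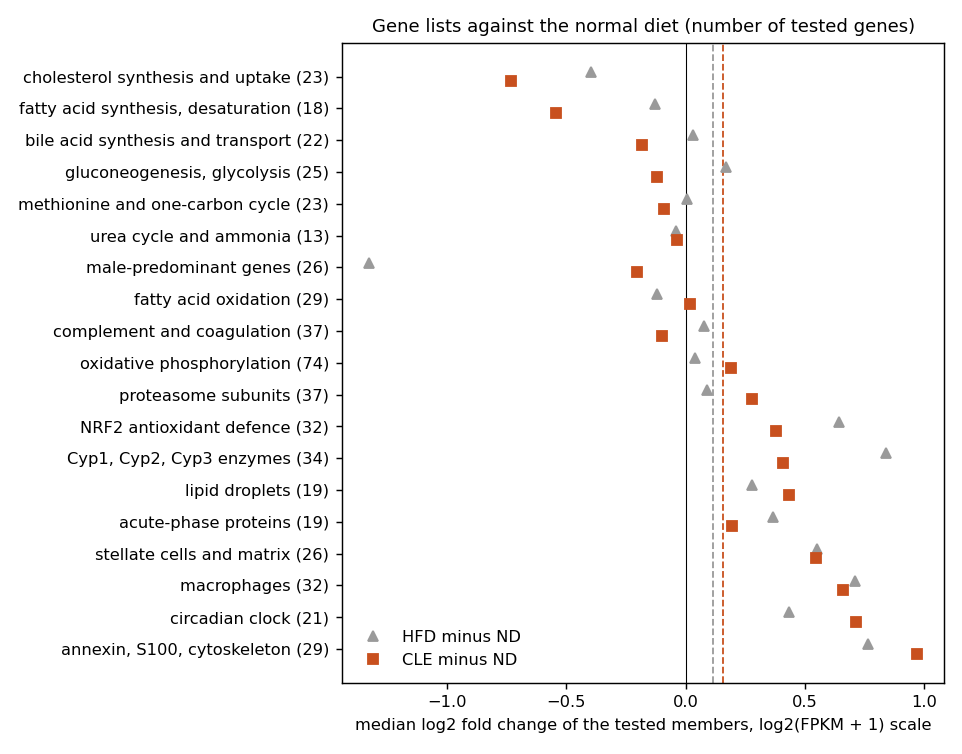
Median log2 fold change of CLE minus ND (squares) and HFD minus ND (triangles) over the tested members of 19 gene lists, on the log2(FPKM + 1) scale, with the number of tested members in brackets and dashed lines at the medians over all genes. Among the lists shown, cholesterol synthesis lies lowest in CLE at −0.73, and the annexin, S100 and cytoskeletal genes at 0.97 and the clock genes at 0.71 lie highest, against 0.16 over all genes. The adipocyte list, with 5 tested members, is not shown and had a median of 1.36. Its members Adipoq, Plin1, Lep and Retn were below 0.5 FPKM and are not among those tested.

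Genes of cholesterol synthesis and uptake were the list with the largest share of lower members in the CLE livers. Of 23 tested members, 15 (65.2%, against 6.08% of all genes) were lower in CLE, 0 were higher and 8 did not pass the test, and all 15 calls held under all scalings. Idi1, which converts isopentenyl diphosphate into the second building block of sterols, measured 9.11, 28.8 and 13.1 FPKM in the ND livers and 3.15, 1.18 and 2.2 FPKM in the CLE livers. The CLE values all lay under the ND values, and ND mouse 3 was the highest of the 6. Idi1 fell in CLE (log2 fold change -2.4 ± 0.33 (SE), adjusted p = 0.0011). Cyp51, the lanosterol demethylase, read 11.4, 18.5 and 10.2 FPKM in the ND livers and 4.0, 2.66 and 3.81 FPKM in the CLE livers, with no overlap (log2 fold change -1.65 ± 0.2 (SE), adjusted p = 0.0007). Sqle, the squalene epoxidase that adds oxygen to the chain before ring closure, measured 2.05, 5.27 and 3.54 FPKM in ND and 0.597, 0.412 and 0.318 FPKM in CLE livers and also fell (log2 fold change -1.62 ± 0.2 (SE), adjusted p = 0.00074).

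Further along the same pathway, Fdps, which makes farnesyl diphosphate, stood at 16.9, 54.9 and 14.8 FPKM in ND and 9.65, 8.28 and 8.13 FPKM in CLE livers (log2 fold change -1.38 ± 0.34 (SE), adjusted p = 0.014). ND mouse 3 carried more than the other ND mice for Fdps as it did for Idi1, and both calls were kept when it was left out (adjusted p = 0.0076 for Fdps and 0.0019 for Idi1). Stard4, a carrier of cholesterol inside the cell, fell from a mean of 18.9 ± 8.71 to 5.9 ± 1.03 FPKM (SD, n = 3; log2 fold change -1.46 ± 0.27 (SE), adjusted p = 0.0041). Srebf2, the gene of SREBP2, had an adjusted p of 0.066 at a log2 fold change of -0.43, and was called lower after median-of-ratios scaling (adjusted p = 0.014). Hmgcs1 had an adjusted p of 0.086 and was also called lower after that scaling (adjusted p = 0.028). In HFD livers Idi1 measured 2.54, 3.84 and 3.2 FPKM, Cyp51 3.12, 4.24 and 3.55 FPKM and Sqle 0.318, 0.471 and 0.558 FPKM, and CLE against HFD gave an adjusted p of 0.38 for Idi1, 0.88 for Cyp51 and 0.99 for Sqle. Without the extract these genes were also below ND (HFD against ND log2 fold change -1.96, -1.59 and -1.62). The sterol element TCACNCCAC, read on both strands from 250 bases before to 50 after the start site, was present in the promoters of 1 of the 15 cholesterol genes that could be matched (6.67%; Hmgcs1, which was not called at an adjusted p of 0.086) and of 388 of 27025 genes in all (1.44%).

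Among the sterol exporters, Abcg5 was higher in CLE. Abcg5, which with Abcg8 forms the pump that sends sterols into bile, measured 26.7, 30.7 and 29.4 FPKM in the ND livers and 70.4, 70.3 and 80.4 FPKM in the CLE livers and rose (log2 fold change 1.32 ± 0.13 (SE), adjusted p = 0.0002), with the call held under all scalings. Abcg8 measured 22.5, 23.7 and 23.5 FPKM in ND and 39.8, 22.7 and 34.6 FPKM in CLE livers, where the groups overlapped through CLE mouse 4 (adjusted p = 0.092). In HFD livers Abcg5 stood at 131, 107 and 119.7 FPKM, above CLE (CLE against HFD log2 fold change -0.69, adjusted p = 0.019), so that the CLE level lay between ND and HFD. Over the 12 LXR targets and sterol efflux genes, 4 were higher and 0 lower as deposited, and 1, Abcg5, held under all scalings.

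Fatty acid synthesis was mixed. Of 18 tested members, 6 were lower and 3 higher in CLE, and the 6 lower ones held under all scalings (33.3%) while none of the higher ones did. The lower ones were Acacb, Acss2, Elovl2, Elovl5, Elovl6 and Fads1, and the higher ones Elovl1, Srebf1 and Mlxipl. Without ND mouse 3 or CLE mouse 4 the lower count was 3. Elovl6, which lengthens palmitate, measured 14.2, 37.2 and 27.9 FPKM in the ND livers and 10.4, 4.72 and 8.77 FPKM in the CLE livers, with no overlap and ND mouse 3 again highest (log2 fold change -1.57 ± 0.32 (SE), adjusted p = 0.0063). Elovl2, which lengthens polyunsaturated acids, fell from 505 ± 42.7 to 247 ± 83.9 FPKM (mean ± SD, n = 3; log2 fold change -1.08 ± 0.22 (SE), adjusted p = 0.0061). Acacb, the acetyl-CoA carboxylase at the mitochondrial surface, measured 15.5, 25 and 14.5 FPKM in ND and 9.58, 9.52 and 4.42 FPKM in CLE livers (log2 fold change -1.15 ± 0.27 (SE), adjusted p = 0.011; in its most abundant transcript alone, adjusted p = 0.41). Fads1, the delta-5 desaturase, was called (log2 fold change -1.11 ± 0.28 (SE), adjusted p = 0.015) but not without ND mouse 3 (adjusted p = 0.05) or CLE mouse 4 (0.059). Scd1, the stearoyl-CoA desaturase and the most abundant member, measured 2253, 7162 and 3112 FPKM in the ND livers and 4277, 1405 and 2738 FPKM in the CLE livers, so the groups overlapped (adjusted p = 0.37). Over known transcripts alone Scd1 was called lower (log2 fold change −2.84, adjusted p = 0.022). Fasn, the fatty acid synthase, gave 12.9, 29.3 and 17.1 FPKM in the ND livers and 29.7, 27.8 and 33.8 FPKM in the CLE livers (adjusted p = 0.088, and over known transcripts alone a higher call at 0.032). Srebf1, the gene of SREBP1, rose from 11, 14.1 and 14.5 FPKM in ND to 39.2, 51.1 and 31.9 FPKM in CLE livers (log2 fold change 1.54 ± 0.36 (SE), adjusted p = 0.011), although this call did not hold under every scaling or in its most abundant transcript alone (adjusted p = 0.53). HFD livers had 46.9, 40.1 and 50.4 FPKM of Srebf1 and 9.39, 16 and 12 FPKM of Elovl6.

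**Figure D2:**
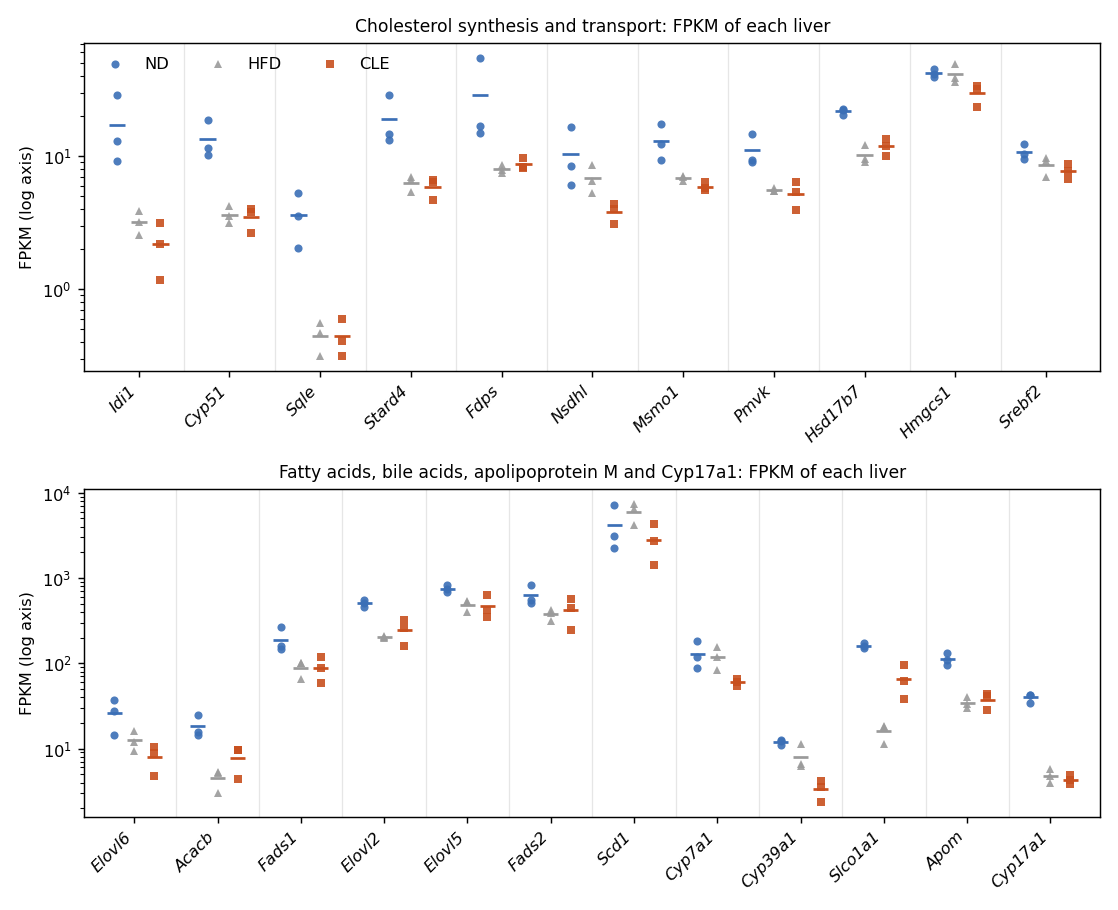
FPKM on a log axis in each ND, HFD and CLE liver for genes of cholesterol synthesis and transport (top) and for fatty acid, bile acid and transport genes with Apom and Cyp17a1 (bottom), called ones together with Hmgcs1, Srebf2, Fads2 and Scd1, which were not called. Points are single livers and short bars are means of 3: the CLE points of Idi1 lie between 1.18 and 3.15 FPKM, under the lowest ND point at 9.11, and those of Cyp17a1 between 3.83 and 4.86 FPKM, under the lowest ND point at 34.5.

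Bile acid genes were split between steps. Of 22 tested, 7 were lower in CLE and 2 higher, and the 7 lower calls (31.8%) held under all scalings, but the lower count was 3 without ND mouse 3, 4 without ND mouse 4 and 1 without CLE mouse 4, and the higher count was 1 without ND mouse 2, ND mouse 4 or CLE mouse 4. The lower call that remained in every refit was that of Cyp39a1, an oxysterol hydroxylase, at 12.1, 10.9 and 12.5 FPKM in the ND livers and 3.59, 4.17 and 2.37 FPKM in the CLE livers (log2 fold change -1.57 ± 0.31 (SE), adjusted p = 0.0056). Cyp7a1, the rate-limiting enzyme of bile acid synthesis, measured 118, 183 and 89 FPKM in the ND livers and 60.2, 53.7 and 65.5 FPKM in the CLE livers. The groups did not overlap, and the fall (log2 fold change -1.05 ± 0.27 (SE), adjusted p = 0.016) was not past the threshold without ND mouse 3 (adjusted p = 0.054) or CLE mouse 4 (0.056). HFD livers held 83.8, 118 and 157 FPKM of Cyp7a1 and 6.52, 11.3 and 6.2 FPKM of Cyp39a1, and CLE against HFD had adjusted p values of 0.053 and 0.062. Slco1a1, an organic anion uptake carrier of the male liver, measured 159, 172 and 150.3 FPKM in ND and 61.4, 38.2 and 95.2 FPKM in CLE livers (log2 fold change -1.38 ± 0.35 (SE), adjusted p = 0.014; without CLE mouse 4, adjusted p = 0.059). Its HFD values were lower still, at 18.4, 11.4 and 17.9 FPKM (CLE against HFD log2 fold change 1.9, adjusted p = 0.019). Nr0b2 (SHP), the repressor that bile acids induce through FXR, overlapped between ND and CLE (11.6, 5.61 and 14.4 against 19.98, 15.1 and 38.8 FPKM, adjusted p = 0.067).

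Among 18 lipoprotein genes, 3 were lower and 3 higher in CLE, and all of the lower but only 1 of the higher calls held under all scalings. Apom, the apolipoprotein that carries sphingosine 1-phosphate in HDL, measured 132, 94.3 and 108 FPKM in the ND livers and 43.7, 41.1 and 28 FPKM in the CLE livers, with no overlap (log2 fold change -1.56 ± 0.19 (SE), adjusted p = 0.0007). Mttp, which loads lipid onto apolipoprotein B, fell from 149 ± 4.76 to 97.2 ± 14.2 FPKM (log2 fold change -0.62 ± 0.13 (SE), adjusted p = 0.0069). The higher call that held was Angptl8, an inhibitor of lipoprotein lipase made after feeding and listed in the table under its older symbol, at 4.92, 2.85 and 7.4 FPKM in the ND livers and 25.9, 68.3 and 85.7 FPKM in the CLE livers (log2 fold change 3.24 ± 0.51 (SE), adjusted p = 0.0021). CLE mouse 2 was the lowest of the 3 CLE livers for Angptl8 and still lay above each ND liver. The count of higher lipoprotein members was 1 without ND mouse 2, ND mouse 4 or CLE mouse 4 and 5 without CLE mouse 2.

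Tff3 and Cyp17a1 had the 2 largest falls among the genes named by size, ahead of Idi1. Tff3, a secreted trefoil peptide (GRCm38 chromosome 17 from 31125306 to 31129646), measured 34.5, 58.4 and 13.6 FPKM in the ND livers and 3.96, 2.72 and 2.22 FPKM in the CLE livers. No CLE liver reached the lowest ND liver, ND mouse 4 (log2 fold change -3.01 ± 0.37 (SE), adjusted p = 0.0007). Cyp17a1, the steroid 17-alpha-hydroxylase (chromosome 19 from 46667165 to 46673172), varied little within groups, at 42.1, 42.9 and 34.5 FPKM in ND and 4.28, 4.86 and 3.83 FPKM in CLE livers, a 9.22-fold difference of means (log2 fold change -2.94 ± 0.19 (SE), adjusted p = 1.3e-05). HFD livers held 3.99, 5.75 and 4.74 FPKM, and CLE against HFD was not called for Cyp17a1 (log2 fold change -0.12, adjusted p = 0.7). Lepr, the leptin receptor (chromosome 4 from 101717404 to 101815352), measured 28.5, 15.8 and 27.5 FPKM in the ND livers and 6.78, 4.7 and 2.49 FPKM in the CLE livers (log2 fold change -2.17 ± 0.31 (SE), adjusted p = 0.0012). HFD livers held 1.9, 1.37 and 2.0 FPKM of Lepr (CLE against HFD adjusted p = 0.069).

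Growth hormone and IGF genes held several of the low members. Socs2, a STAT5 target that dampens growth hormone signalling, measured 40.3, 62.6 and 16.3 FPKM in the ND livers and 10.5, 5.25 and 3.7 FPKM in the CLE livers (log2 fold change -2.35 ± 0.56 (SE), adjusted p = 0.011), and ND mouse 4 was the lowest ND liver. Igfbp1, an insulin-repressed binding protein for IGF1, measured 221, 71.5 and 281 FPKM in the ND livers and 53.4, 27.2 and 43.9 FPKM in the CLE livers, with ND mouse 3 far under the other ND mice but above all CLE mice (log2 fold change -2.01 ± 0.41 (SE), adjusted p = 0.0068; in its most abundant transcript alone, adjusted p = 0.054). Egfr, the receptor of epidermal growth factor, fell from 126, 183 and 169 FPKM in ND to 83.7, 32.2 and 64.2 FPKM in CLE livers (log2 fold change -1.48 ± 0.33 (SE), adjusted p = 0.0095). Ghr, the growth hormone receptor, had means of 243 ± 34.7 FPKM in ND and 193 ± 32.6 FPKM in CLE livers (adjusted p = 0.1), and Igf1 means of 268 ± 5.66 and 266 ± 42 FPKM (SD, n = 3; adjusted p = 0.92). After median-of-ratios scaling Ghr was called lower (adjusted p = 0.035). Over the 17 tested genes of this axis, 4 were lower and held under all scalings, and 4 were higher as deposited, of which 0 held. The higher count was 1 without ND mouse 2 and 2 without ND mouse 4 or CLE mouse 4. Onecut1, a hepatocyte transcription factor, had a log2 fold change of -2.17 that did not pass (adjusted p = 0.089), and 1 ND liver stood far from the others (10.8, 90.3 and 9.65 FPKM).

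The other low genes named by size were Fabp5, Slc25a30, Plcxd2 and Rnf125. Fabp5, a fatty acid-binding protein, measured 53.4, 241 and 51.1 FPKM in the ND livers and 22.5, 14.4 and 17 FPKM in the CLE livers, with ND mouse 3 several times above the others (log2 fold change -2.24 ± 0.47 (SE), adjusted p = 0.0072; without ND mouse 3, adjusted p = 0.0073). Slc25a30, a mitochondrial carrier, had the same order among ND mice, at 67.2, 179 and 54.4 FPKM, against 27.4, 17.7 and 13 FPKM in CLE livers (log2 fold change -2.17 ± 0.51 (SE), adjusted p = 0.011). Plcxd2 had a log2 fold change of -1.88 ± 0.29 (adjusted p = 0.0021) and Rnf125, a ubiquitin ligase, of -1.86 ± 0.41 (adjusted p = 0.0089, or 0.08 in its most abundant transcript alone). Rnf125 measured 58.8, 92.5 and 68.7 FPKM in HFD against 87.1, 68 and 199.7 FPKM in ND livers (adjusted p = 0.42) and 54.1, 19.6 and 21.6 FPKM in CLE livers. Mup16, a major urinary protein, also met the rule at a log2 fold change of -2.27 (adjusted p = 0.038), but it did not hold under all scalings and was lost in 5 of the 6 refits that left out 1 liver. It lost the call without ND mouse 3, for example, at an adjusted p of 0.061. Mup genes are near-identical copies, so their single values are uncertain.

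Genes of glucose release were lower in part. Of 25 genes of glucose and glycogen metabolism, 4 were lower and 2 higher, and the 4 lower calls held under all scalings. G6pc, the last enzyme of glucose release, measured 268, 234 and 427 FPKM in the ND livers and 155, 123 and 117 FPKM in the CLE livers, with no overlap (log2 fold change -1.19 ± 0.27 (SE), adjusted p = 0.011). Fbp1, fructose bisphosphatase, fell from 1029 ± 94.3 to 667 ± 107 FPKM (SD, n = 3; log2 fold change -0.63 ± 0.13 (SE), adjusted p = 0.0075). Pck1, the cytosolic step of gluconeogenesis, overlapped (1263 ± 227 in ND and 1177 ± 137 FPKM in CLE livers, adjusted p = 0.69). The higher count of this list was 1 without ND mouse 2, ND mouse 4 or CLE mouse 4 and 4 without ND mouse 3. Of 18 tested genes of hepatic insulin signalling, 3 (16.7%) were higher, 3 (16.7%) lower and 12 did not pass, with a median log2 fold change of -0.05. The higher count was 1 without ND mouse 4 or CLE mouse 4, and the lower count was 7 without CLE mouse 2. Among these genes Irs2, an insulin receptor substrate, fell from 9.21, 13.5 and 10.7 to 7.22, 4.96 and 4.02 FPKM (log2 fold change -0.94 ± 0.2 (SE), adjusted p = 0.0085). Trib3, a pseudokinase that binds AKT, rose from 1.71, 1.83 and 3.0 to 8.19, 7.09 and 5.15 FPKM (log2 fold change 1.3 ± 0.2 (SE), adjusted p = 0.0022).

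Nitrogen metabolism showed a few firm falls among many genes that did not pass. Cps1, the first enzyme of the urea cycle, measured 781, 726 and 1048 FPKM in the ND livers and 494, 308 and 483 FPKM in the CLE livers (log2 fold change -1.0 ± 0.19 (SE), adjusted p = 0.0044). Slc25a13 and Slc25a15, the mitochondrial carriers of aspartate and ornithine, both fell (log2 fold changes −0.68 and −0.64, adjusted p = 0.0083 and 0.0065). Of the 13 urea cycle genes, 3 were lower and 2 higher, and of 27 genes of amino acid catabolism 3 were lower and 6 higher. The 3 lower calls of each list held under all scalings, and 1 higher call of each did. The urea cycle higher count was 1 without ND mouse 2, ND mouse 4 or CLE mouse 4, and that of amino acid catabolism was 3 without ND mouse 2, ND mouse 3, CLE mouse 4 or CLE mouse 11. Got1, the cytosolic aspartate aminotransferase, measured 298, 247 and 348 FPKM in the ND livers and 149, 93.2 and 141 FPKM in the CLE livers (log2 fold change -1.23 ± 0.21 (SE), adjusted p = 0.003). In the methionine and one-carbon cycle, 5 of 23 genes were lower, a count that was 3 without ND mouse 2 and 2 without ND mouse 4. Dmgdh and Bhmt2, which handle dimethylglycine and methyl transfer to homocysteine, kept their calls in all 6 refits (log2 fold change -0.7 ± 0.14 (SE), adjusted p = 0.0071 and log2 fold change -0.64 ± 0.13 (SE), adjusted p = 0.006).

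Complement and clotting genes were split. Of 37 genes, 7 were lower, 9 higher and 21 did not pass, with a median log2 fold change of −0.10, and 7 and 3 of these held under all scalings, but the lower count was 2 without ND mouse 3, ND mouse 4 or CLE mouse 4. C8b, a subunit of the membrane attack complex, measured 148, 151 and 120.1 FPKM in the ND livers and 51.4, 47.6 and 70.1 FPKM in the CLE livers (log2 fold change -1.31 ± 0.2 (SE), adjusted p = 0.0021). F13b, which carries clotting factor XIII, fell from 97.9, 98.8 and 109 to 76.4, 48.2 and 65.1 FPKM (log2 fold change -0.7 ± 0.14 (SE), adjusted p = 0.0061). Fga, a fibrinogen chain, fell (log2 fold change -0.85 ± 0.24 (SE), adjusted p = 0.024) and lost the call without ND mouse 3 (adjusted p = 0.07), ND mouse 4 (0.067) or CLE mouse 4 (0.083).

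Cell-structure genes held the largest number of higher members of any list. Of 29 annexin, S100, tubulin, keratin, actin and galectin genes tested, 20 (69.0%, against 20.9% of all genes) were higher in CLE, 0 were lower and 9 did not pass, and 15 calls (51.7%, against 4.48%) held under all scalings. Anxa2, a membrane-binding annexin, measured 8.93, 9.75 and 11.3 FPKM in the ND livers and 64.9, 33.1 and 41.5 FPKM in the CLE livers, with no overlap (log2 fold change 2.06 ± 0.22 (SE), adjusted p = 0.00045). Krt8, the keratin of hepatocytes, read 69.6, 68.8 and 84.1 FPKM in the ND livers and 176, 155 and 174 FPKM in the CLE livers (log2 fold change 1.18 ± 0.15 (SE), adjusted p = 0.0008). Krt23, a keratin scarce in normal liver, rose from 1.41, 0.924 and 3.56 to 10.8, 5.98 and 9.78 FPKM (log2 fold change 1.8 ± 0.31 (SE), adjusted p = 0.0036). S100a11 measured 9.32, 12.8 and 13.2 FPKM in ND and 68.5, 27.3 and 33.6 FPKM in CLE livers, with CLE mouse 2 highest (log2 fold change 1.69 ± 0.37 (SE), adjusted p = 0.0088). Tpm2 and Adam11 are not members of this list and were named by size of change. Tpm2, a tropomyosin, rose from 3.22, 3.14 and 4.79 to 19.9, 28.4 and 26.7 FPKM (log2 fold change 2.46 ± 0.17 (SE), adjusted p = 1.3e-05). Adam11, a membrane protein of the disintegrin family (chromosome 11 from 102761439 to 102780262), measured 2.0, 2.48 and 1.72 FPKM in the ND livers and 17.8, 36.7 and 21.5 FPKM in the CLE livers, a 12.3-fold difference of means (log2 fold change 3.04 ± 0.21 (SE), adjusted p = 1.3e-05). In HFD livers Anxa2 stood at 54.3, 52.9 and 52.3 FPKM and Krt8 at 215, 165 and 213 FPKM, and CLE against HFD had adjusted p values of 0.48 and 0.34. The HFD livers had 21 of the 29 genes above ND (9.99% of all genes were higher in HFD) and 0 below (2.11% of all genes).

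Macrophage and matrix genes were higher too, less firmly. Of 32 macrophage genes, 13 (40.6%) were higher and 0 lower, and 4 (12.5%) held under all scalings. Cd68, a lysosomal protein of macrophages, measured 2.98, 3.46 and 3.47 FPKM in the ND livers and 13.6, 5.87 and 11 FPKM in the CLE livers (log2 fold change 1.31 ± 0.25 (SE), adjusted p = 0.0055). Lgals3, galectin 3, which macrophages secrete, was counted among the cell-structure genes and not among these 32. It rose from 2.88, 2.66 and 3.74 to 15.2, 6.76 and 9.4 FPKM (log2 fold change 1.43 ± 0.27 (SE), adjusted p = 0.005). Clec4f, the Kupffer cell lectin, measured 36.2, 34 and 33.7 FPKM in ND and 45.5, 57.3 and 63.7 FPKM in CLE livers (log2 fold change 0.65 ± 0.17 (SE), adjusted p = 0.016), a call that did not hold under every scaling or without ND mouse 4 (adjusted p = 0.052), CLE mouse 4 (0.051) or CLE mouse 11 (0.053). Trem2, a receptor of lipid-handling macrophages, had a log2 fold change of 0.82 and an adjusted p of 0.16, and Spp1, osteopontin, of 1.0 and 0.051. Spp1 was called higher after the GC correction (adjusted p = 0.047) and with a pseudocount of 0.1 (0.049). Summed macrophage markers were also higher in CLE, as given above, and their part in these values was not tested.

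Of 26 stellate cell and matrix genes, 13 were higher in CLE, 0 were lower, and 7 (26.9%) held under all scalings; without ND mouse 2 the count was 8. Col3a1, a chain of fibrillar collagen, measured 3.29, 3.53 and 3.8 FPKM in the ND livers and 25.3, 6.43 and 8.79 FPKM in the CLE livers, with CLE mouse 2 far above the other CLE mice (log2 fold change 1.45 ± 0.34 (SE), adjusted p = 0.011; in its most abundant transcript alone, adjusted p = 0.054). Col1a1 had the same order, at 0.238, 0.749 and 0.591 FPKM in ND and 6.11, 1.45 and 1.71 FPKM in CLE livers (log2 fold change 1.26 ± 0.33 (SE), adjusted p = 0.017), but the call did not hold under every scaling or without ND mouse 2 (adjusted p = 0.056). Acta2, the smooth-muscle actin of activated stellate cells, had an adjusted p of 0.83 at a log2 fold change of 0.09. Vim, Sparc, Des and Dcn, genes of mesenchymal filaments and matrix, rose (log2 fold changes 1.09, 1.06, 0.81 and 0.77, adjusted p = 0.00067, 0.0045, 0.0014 and 0.0096), and all 4 held under all scalings. Vim was not called in its most abundant transcript alone (adjusted p = 0.14). All 5 stellate markers had a row, 3 of them were called higher, and the share of these cells in the matrix values was not tested. Of 14 endothelial genes, 6 were higher and 2 held under all scalings, and the count was 3 without ND mouse 4.

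**Figure D3:**
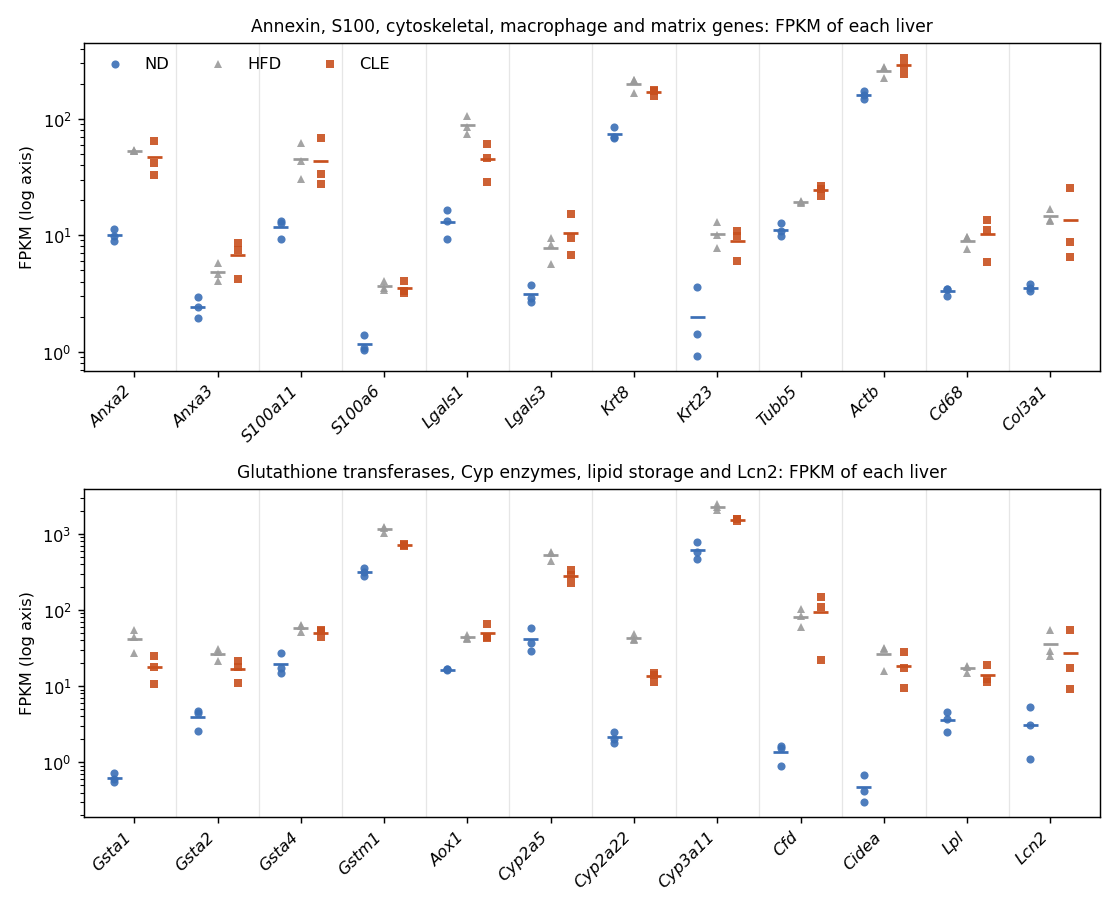
FPKM on a log axis in each ND, HFD and CLE liver for structural, macrophage and matrix genes (top) and for conjugating enzymes, Cyp enzymes, lipid storage genes and Lcn2 (bottom), all called higher in CLE than in ND. Points are single livers and short bars are means of 3: the CLE points of Anxa2 lie between 33.1 and 64.9 FPKM, above the highest ND point at 11.3, and those of Cfd spread from 21.8 to 150.0 FPKM.

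Antioxidant and conjugating enzymes were higher in part. Of 32 tested genes listed for NRF2 antioxidant defence, not all of them targets of NRF2, 13 (40.6%) were higher, 0 were lower, and 11 (34.4%) held under all scalings. Of 29 glutathione transferases, UDP-glucuronosyltransferases and sulfotransferases, some of them also in the NRF2 list, 9 (31.0%) were higher and 2 lower in CLE than in ND, and 6 and 0 held under all scalings. The lower ones were Ugt2a3 and Ugt2b35 (log2 fold change -0.45 ± 0.13 (SE), adjusted p = 0.026, and log2 fold change -0.48 ± 0.16 (SE), adjusted p = 0.04), and 0 were lower without ND mouse 2, ND mouse 3 or CLE mouse 4 and 1 without ND mouse 4 or CLE mouse 11. The Ugt2b genes are close copies and their single values are uncertain. In CLE against HFD, 2 of the 29 were higher and 11 lower, where 2.74% of all genes were higher and 3.29% lower. Gsta1, a glutathione transferase (chromosome 9 from 78230656 to 78242684), measured 0.607, 0.726 and 0.545 FPKM in the ND livers and 24.7, 10.7 and 17.6 FPKM in the CLE livers, with no overlap (log2 fold change 3.45 ± 0.28 (SE), adjusted p = 5.5e-05). HFD livers stood at 27, 44.8 and 54.3 FPKM, and CLE lay between ND and HFD (CLE against HFD log2 fold change -1.22, adjusted p = 0.035). Gsta2, a close copy, rose from 4.72, 2.59 and 4.41 to 11.1, 21.5 and 17.8 FPKM (log2 fold change 1.84 ± 0.22 (SE), adjusted p = 0.0007), and fragments could be shared out between the copies. Aox1, an aldehyde oxidase, measured 16.8, 16.2 and 16.5 FPKM in the ND livers and 42.4, 64.8 and 44.1 FPKM in the CLE livers (log2 fold change 1.53 ± 0.14 (SE), adjusted p = 0.00016; in its most abundant transcript alone, adjusted p = 0.15) and 41.7, 42.6 and 46.6 FPKM in HFD livers (CLE against HFD adjusted p = 0.41). Hmox1, heme oxygenase, rose from 7.6 ± 0.35 to 13.6 ± 0.256 FPKM (SD, n = 3; log2 fold change 0.76 ± 0.14 (SE), adjusted p = 0.0038). Nqo1, the classical quinone reductase target of NRF2, rose (log2 fold change 0.68 ± 0.18 (SE), adjusted p = 0.017) but was not called at equal summed FPKM (adjusted p = 0.077).

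Cytochromes P450 of the Cyp1, Cyp2 and Cyp3 families followed: 11 of 34 tested genes (32.4%) were higher and 1 was lower, and 8 and 1 held under all scalings. Cyp2a5, the coumarin hydroxylase (chromosome 7 from 26835305 to 26843548), measured 37.3, 58.2 and 28.9 FPKM in the ND livers and 223, 336 and 290.0 FPKM in the CLE livers, a 6.83-fold difference of means (log2 fold change 2.78 ± 0.34 (SE), adjusted p = 0.0007). Cyp2a22 rose from 1.81, 2.52 and 2.02 to 14.1, 14.8 and 11.4 FPKM (log2 fold change 2.21 ± 0.23 (SE), adjusted p = 0.00043), and HFD livers held 48.4, 41.5 and 40.2 FPKM (CLE against HFD log2 fold change -1.62, adjusted p = 0.0059). Cyp3a11, the main pregnane-induced P450, stood at 615 ± 162 FPKM in ND and 1537 ± 65 FPKM in CLE livers (SD, n = 3; log2 fold change 1.35 ± 0.17 (SE), adjusted p = 0.0008). Cyp1a2, a target of the aryl hydrocarbon receptor, rose from 99.9, 94.1 and 83.1 to 158, 239 and 238 FPKM (log2 fold change 1.17 ± 0.26 (SE), adjusted p = 0.0089). Nr1i3 (CAR), a nuclear receptor that turns on drug-metabolizing genes, rose from 124, 72.1 and 111 to 185, 401 and 245 FPKM (log2 fold change 1.39 ± 0.26 (SE), adjusted p = 0.0044), with CLE mouse 4 highest. Its best-known target Cyp2b10 measured 0, 0 and 0.235 FPKM in ND and 0.142, 0.612 and 0.426 FPKM in CLE livers (adjusted p = 0.2). The lower gene was Cyp2c40, at 6.12, 9.52 and 6.01 FPKM in the ND livers and 2.55, 3.38 and 2.35 FPKM in the CLE livers (log2 fold change -1.11 ± 0.23 (SE), adjusted p = 0.0068), while its HFD values of 7.56, 6.46 and 4.9 FPKM were not called against ND (adjusted p = 0.71).

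Fat storage genes were high in part. Cfd (adipsin), a protease best known from adipocytes that activates the alternative complement pathway (chromosome 10 from 79890853 to 79892655), had the largest fold change of all genes named by size, at 0.889, 1.65 and 1.54 FPKM in the ND livers and 111, 21.8 and 150.0 FPKM in the CLE livers. CLE mouse 4 lay far under the other CLE mice and still well above each ND mouse (log2 fold change 4.96 ± 0.59 (SE), adjusted p = 0.0007). Cidea, which helps lipid droplets fuse, measured 0.419, 0.68 and 0.302 FPKM in the ND livers and 28.1, 9.37 and 17.5 FPKM in the CLE livers (log2 fold change 3.6 ± 0.4 (SE), adjusted p = 0.0006). Lpl, lipoprotein lipase, rose from 2.51, 4.61 and 3.69 to 18.7, 12.3 and 11.5 FPKM (log2 fold change 1.72 ± 0.19 (SE), adjusted p = 0.0006), and Fabp4, the fatty acid carrier of adipocytes and macrophages, from 14.7, 11.6 and 10.7 to 56.8, 28 and 22.1 FPKM (log2 fold change 1.36 ± 0.29 (SE), adjusted p = 0.0083). Of 19 lipid droplet and PPAR-gamma target genes, 10 were higher as deposited, 0 were lower and 3, namely Cidea, Lpl and Fabp4, held under all scalings. The count was 6 without ND mouse 2, ND mouse 3, CLE mouse 2 or CLE mouse 4 and 5 without ND mouse 4. Plin2, the main coat protein of hepatocyte droplets, measured 847, 706 and 854 FPKM in the ND livers and 969.7, 771 and 783 FPKM in the CLE livers (adjusted p = 0.8), and Pparg 6.47, 9.08 and 7.05 FPKM in ND and 11.7, 6.82 and 7.49 FPKM in CLE livers (adjusted p = 0.52). The adipocyte markers Adipoq, Plin1, Lep and Retn were all below 0.5 FPKM, with a sum of 0 to 0.107 FPKM in ND and 0.142 to 0.384 FPKM in CLE livers. HFD livers stood at 83.1, 58.9 and 104 FPKM for Cfd and 32, 30.7 and 15.8 FPKM for Cidea, and CLE against HFD had adjusted p values of 0.88 and 0.38. In triglyceride synthesis Gpat3 rose from 4.11, 3.44 and 4.8 to 11.8, 13.2 and 8.18 FPKM (log2 fold change 1.22 ± 0.28 (SE), adjusted p = 0.01) while Gpat4, its relative in the same step, fell from 126, 111 and 119 to 82.1, 62.3 and 48 FPKM (log2 fold change -0.91 ± 0.16 (SE), adjusted p = 0.0039), and both calls held under all scalings, though Gpat3 was not called over known transcripts alone (adjusted p = 0.11).

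Acute-phase proteins, which hepatocytes secrete in inflammation, were higher for the serum amyloid and lipocalin genes. Of 19 tested, 7 (36.8%) were higher and 1 lower, 6 of the higher calls held under all scalings, and without ND mouse 2 the higher count was 4. Saa3 measured 1.41, 1.9 and 2.73 FPKM in the ND livers and 14, 8.72 and 20.9 FPKM in the CLE livers (log2 fold change 2.31 ± 0.47 (SE), adjusted p = 0.0067). Orm2, an orosomucoid, rose from 5.42, 7.25 and 7.23 to 53.3, 21.1 and 32 FPKM (log2 fold change 2.17 ± 0.32 (SE), adjusted p = 0.0018). Lcn2, lipocalin 2, measured 1.1, 3.04 and 5.24 FPKM in the ND livers and 54.4, 9.13 and 17.3 FPKM in the CLE livers, with CLE mouse 2 highest (log2 fold change 2.53 ± 0.63 (SE), adjusted p = 0.014), and the call was lost without ND mouse 2 (adjusted p = 0.052). Saa1 and Saa2 were called at adjusted p = 0.015 and 0.022, and without ND mouse 2 their adjusted p values were 0.057 and 0.08. Saa2 was also lost without CLE mouse 2 (0.06) or CLE mouse 11 (0.062). The Saa and Orm genes are close copies and their single values are uncertain. The neutrophil markers with a row, S100a8 and S100a9, were both called higher (S100a9 not without ND mouse 2, at an adjusted p of 0.091, or any other liver but ND mouse 4) and summed to 2.13 to 3.62 FPKM in ND and 7.60 to 11.7 FPKM in CLE livers, and their part in the acute-phase values was not tested. Among secreted liver hormones Tsku, tsukushi, rose from 12.3, 7.71 and 4.18 to 18, 55 and 45.8 FPKM (log2 fold change 2.12 ± 0.47 (SE), adjusted p = 0.0093), Gdf15 overlapped (0.728, 1.58 and 3.53 against 12, 3.35 and 6.63 FPKM, adjusted p = 0.061) and Fgf21 had an adjusted p of 0.8. Gdf15 was called higher under some alternatives, such as known transcripts alone (adjusted p = 0.027) and a pseudocount of 0.1 (0.045). Id1, a target of BMP signalling, measured 7.19, 2.74 and 6.13 FPKM in the ND livers and 16.2, 26.7 and 16.5 FPKM in the CLE livers (log2 fold change 1.75 ± 0.38 (SE), adjusted p = 0.0085) and 12.1, 5.21 and 3.85 FPKM in HFD livers, and CLE was above HFD (log2 fold change 1.47, adjusted p = 0.044).

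Clock genes differed in both directions. CLOCK and BMAL1 (Arntl) bind E-boxes and turn on the Per, Cry and Dbp genes. The products of the Per and Cry genes repress CLOCK and BMAL1 in turn. Of 21 clock genes, 10 (47.6%) were higher and 2 (9.52%) lower in CLE, and 8 and 2 held under all scalings. The lower members were Clock and Arntl, the activators at E-boxes. Clock measured 11.9, 13.4 and 14.1 FPKM in the ND livers and 7.73, 5.76 and 6.76 FPKM in the CLE livers (log2 fold change -0.87 ± 0.15 (SE), adjusted p = 0.0037), while its most abundant transcript alone had a log2 fold change of 0.45 in the other direction (adjusted p = 0.093). Arntl measured 5.87, 3.83 and 9.13 FPKM in the ND livers and 2.35, 2.39 and 2.62 FPKM in the CLE livers (log2 fold change -1.01 ± 0.26 (SE), adjusted p = 0.016) and lost the call without ND mouse 4 (adjusted p = 0.065). Among the higher members Ciart, a repressor of CLOCK and BMAL1, measured 0.156, 0.457 and 0.418 FPKM in the ND livers and 3.79, 10.7 and 4.03 FPKM in the CLE livers, with CLE mouse 4 highest (log2 fold change 2.29 ± 0.34 (SE), adjusted p = 0.0016). Per3 measured 0.943, 3.35 and 0.673 FPKM in the ND livers and 5.8, 8.81 and 4.42 FPKM in the CLE livers (log2 fold change 1.56 ± 0.35 (SE), adjusted p = 0.0095), and ND mouse 3 stood above the other ND mice. Over known transcripts alone its adjusted p was 0.3. Usp2, a rhythmic deubiquitinase, rose from 0.912, 2.11 and 0.802 to 6.29, 9.4 and 5.69 FPKM (log2 fold change 1.85 ± 0.27 (SE), adjusted p = 0.0014). Per2, Tef, Bhlhe40 and Bhlhe41 rose (log2 fold changes 1.11, 1.21, 1.48 and 1.07, adjusted p = 0.0083, 0.01, 0.0022 and 0.0078). The most abundant transcript alone gave -0.15 for Tef (adjusted p = 0.65) and an adjusted p of 0.095 for Bhlhe41, and known transcripts alone gave an adjusted p of 0.12 for Per2. Cry1 measured 3.2, 2.13 and 3.67 FPKM in the ND livers and 2.37, 2.7 and 3.18 FPKM in the CLE livers (adjusted p = 0.73). Dbp, a rhythmic activator that binds D-boxes, measured 3.01, 21.4 and 2.06 FPKM in the ND livers and 37.7, 43.9 and 26 FPKM in the CLE livers, again with ND mouse 3 far above its group (log2 fold change 2.47 ± 0.64 (SE), adjusted p = 0.016), and the call was lost without ND mouse 2 (adjusted p = 0.058), ND mouse 4 (0.068) or CLE mouse 4 (0.057). The lower count of the list was 4 without ND mouse 3 and 1 without ND mouse 4. HFD livers measured 1.61, 1.72 and 3.3 FPKM of Ciart, 3.79, 2.31 and 4.93 FPKM of Per3 and 23.1, 6.94 and 29.5 FPKM of Dbp, and CLE against HFD gave adjusted p values of 0.068, 0.23 and 0.31. The time of day of each dissection is not given in the sources used here, and its part in these values was not tested.

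The upstream sequences of Ciart and Per3 show the 2 kinds of rhythmic element. Both are from RefSeq on GRCm38.p6, 250 bases up to the start site on the minus strand, with E-boxes (CACGTG) in capitals for Ciart (chr3:95882229-95882478) and D-boxes (TTATGTAA or TTATGCAA) in capitals for Per3 (chr4:151044666-151044915):
Ciart: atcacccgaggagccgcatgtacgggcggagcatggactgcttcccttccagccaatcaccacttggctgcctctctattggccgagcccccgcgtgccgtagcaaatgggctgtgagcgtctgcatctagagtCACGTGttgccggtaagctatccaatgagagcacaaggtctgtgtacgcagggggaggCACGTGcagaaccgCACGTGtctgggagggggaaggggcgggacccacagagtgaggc
Per3: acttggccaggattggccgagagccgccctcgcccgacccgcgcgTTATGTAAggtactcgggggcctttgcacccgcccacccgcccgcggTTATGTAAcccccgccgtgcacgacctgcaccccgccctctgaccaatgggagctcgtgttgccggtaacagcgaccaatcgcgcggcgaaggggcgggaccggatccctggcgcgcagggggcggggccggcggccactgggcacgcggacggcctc
The E-boxes of Ciart began at −116, −58 and −44 and the D-boxes of Per3 at −205 and −158 from the start site. Over windows from 250 bases before to 50 after the start site, both strands read, the E-box was present for 5 of the 18 clock genes with a promoter in the table (27.8%) and for 2187 of 27025 genes (8.09%). The D-box was present for 2 of the 18 (11.1%) and for 534 genes in all (1.98%). A match describes the letters only.

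**Figure D4:**
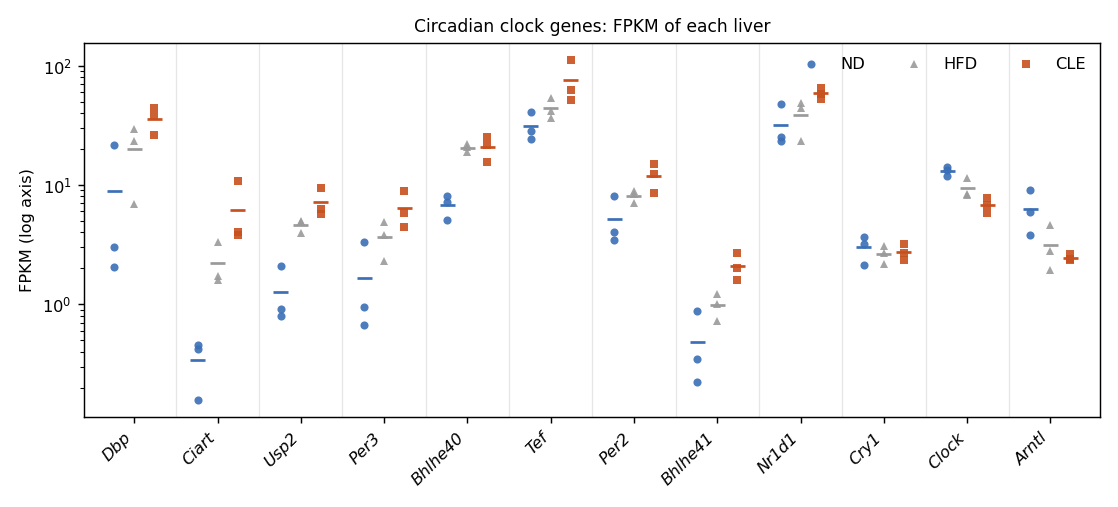
FPKM on a log axis in each ND, HFD and CLE liver for 12 clock genes. Points are single livers and short bars are means of 3: Clock and Arntl lie lower in CLE than in ND, Cry1 overlaps, the other genes lie higher in CLE, and ND mouse 3 is the highest ND liver for Dbp at 21.4 FPKM and for Per3 at 3.35 FPKM.

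Phosphatidylcholine and phosphatidylethanolamine are made from choline and ethanolamine in the Kennedy pathway, and in the liver phosphatidylethanolamine is also methylated to phosphatidylcholine. Of 9 tested genes of the choline and ethanolamine branches and of the methylation step, 3 were lower, 1 was higher and 5 did not pass, and the lower calls held under all scalings. The lower genes were Selenoi and Etnk1 of the ethanolamine branch and Pcyt1a of the choline branch. The higher gene was Chpt1, the choline phosphotransferase (log2 fold change 0.35 ± 0.1 (SE), adjusted p = 0.028), whose call did not hold under every scaling. The higher count was 0 without ND mouse 3, ND mouse 4 or CLE mouse 4 and 3 without CLE mouse 2. Selenoi, the ethanolamine phosphotransferase, measured 26.2, 25.4 and 28.7 FPKM in the ND livers and 17.4, 12.5 and 14.6 FPKM in the CLE livers (log2 fold change -0.82 ± 0.13 (SE), adjusted p = 0.0025). Etnk1, the ethanolamine kinase, fell from 26.9, 27.9 and 29.8 to 22.5, 14.8 and 15 FPKM (log2 fold change -0.69 ± 0.17 (SE), adjusted p = 0.013), but not in its most abundant transcript alone (adjusted p = 0.45). Pcyt1a, the rate-limiting enzyme of the choline branch, measured 22.5, 24.3 and 23.9 FPKM in the ND livers and 21.3, 14.9 and 15.3 FPKM in the CLE livers. CLE mouse 2 lay close to the ND livers, and the call (log2 fold change -0.45 ± 0.14 (SE), adjusted p = 0.037) was lost without any liver except CLE mouse 2, for example at an adjusted p of 0.11 without CLE mouse 11. Chka, the choline kinase, measured 32.8, 21.4 and 38.3 FPKM in ND and 32.1, 32.3 and 24.3 FPKM in CLE livers (adjusted p = 0.93). Of 13 phospholipase and lysophospholipid acyltransferase genes, 4 were higher and 0 lower, and 2 held under all scalings, namely Pla2g7, which cleaves oxidized phospholipids (log2 fold change 0.89 ± 0.17 (SE), adjusted p = 0.0048; over known transcripts alone, adjusted p = 0.14), and Pla2g12a (log2 fold change 1.12 ± 0.18 (SE), adjusted p = 0.0025).

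Sphingolipid genes showed 1 firm rise. Cers6, the ceramide synthase that prefers palmitoyl-CoA, measured 1.78, 2.78 and 2.08 FPKM in the ND livers and 6.21, 4.12 and 5.07 FPKM in the CLE livers, with no overlap (log2 fold change 0.93 ± 0.15 (SE), adjusted p = 0.0022), and HFD livers stood at 7.15, 6.22 and 6.95 FPKM (CLE against HFD adjusted p = 0.14). Ugcg, which adds glucose to ceramide, fell from 10.9, 9.71 and 10.4 to 7.7, 6.2 and 8.29 FPKM (log2 fold change -0.44 ± 0.12 (SE), adjusted p = 0.021), but not without ND mouse 2 (adjusted p = 0.063), ND mouse 4 (0.061) or CLE mouse 4 (0.075). Sgms1, a sphingomyelin synthase, measured 7.67, 9.32 and 6.62 FPKM in the ND livers and 10.3, 6.85 and 8.07 FPKM in the CLE livers (adjusted p = 0.79) and 19.3, 14.1 and 12.3 FPKM in HFD livers (CLE against HFD log2 fold change -0.78, adjusted p = 0.045). Of the 12 tested members, 2 were higher and 1 lower as deposited, and 1 of each held under all scalings. The higher count was 1 without any liver except CLE mouse 2, and the lower count was 0 without ND mouse 4 or CLE mouse 4, 2 without ND mouse 2 and 3 without CLE mouse 2.

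Other lists stood nearer the background, or their counts rested on single livers. Of 29 fatty acid oxidation genes, 4 were higher and 3 lower, and the higher count was 0 without ND mouse 3 or CLE mouse 4, 1 without ND mouse 4 and 2 without ND mouse 2 or CLE mouse 11, while the lower count was 1 without ND mouse 2. Of 22 endoplasmic reticulum chaperone genes, 0 were higher and 2 lower, and the lower count was 1 without any ND mouse or without CLE mouse 4. Interferon-stimulated genes had 3 of 29 members higher and 3 lower. Proteasome subunits had 15 of 37 members higher, of which 3 held under all scalings, and the count was 6 without ND mouse 4 and 7 without ND mouse 3 or CLE mouse 4. Of 74 oxidative phosphorylation subunits, 4 were higher and 4 lower, and the higher count was 23 without CLE mouse 2, 0 without CLE mouse 4, 1 without ND mouse 3 or ND mouse 4 and 2 without ND mouse 2 or CLE mouse 11. Of 75 cytosolic ribosomal protein genes, 11 were higher and 1 lower, and the higher count ran from 1 without ND mouse 3, ND mouse 4 or CLE mouse 4 to 29 without CLE mouse 2.

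Genes that depend on the male pattern of growth hormone had few calls between CLE and ND and many between HFD and ND. Of 26 male-predominant genes tested, 3 (11.5%, against 6.08% of all genes) were lower in CLE than in ND and 1 (3.85%, against 20.9%) was higher. Their median log2 fold change was −0.20, against 0.16 over all genes. The lower count was 1 without CLE mouse 4 and 6 after median-of-ratios scaling. In HFD against ND, 17 were lower and 0 higher, with a median of −1.33, and in CLE against HFD 9 were higher and 0 lower. Of all genes, 2.11% were lower in HFD than in ND, and 2.74% were higher and 3.29% lower in CLE than in HFD. Cyp4a12b, a fatty acid omega-hydroxylase of male liver, measured 71.8, 83.4 and 65.9 FPKM in the ND livers and 80.6, 58.3 and 73.9 FPKM in the CLE livers and 13.6, 15.9 and 20.4 FPKM in HFD livers. CLE and ND overlapped (log2 fold change -0.06 ± 0.19, adjusted p = 0.83), and CLE lay above HFD (log2 fold change 2.03, adjusted p = 0.00071). Elovl3, an elongase of saturated chains, measured 459, 315 and 409 FPKM in ND, 237, 377 and 346 FPKM in CLE and 144, 158 and 118 FPKM in HFD livers (CLE against ND -0.31 ± 0.22, adjusted p = 0.3). Mup3, a major urinary protein, stood at 7483 ± 1296 FPKM in ND, 7242 ± 1795 FPKM in CLE and 3521 ± 192 FPKM in HFD livers (SD, n = 3; CLE against ND adjusted p = 0.86). Hsd3b5, a male-specific hydroxysteroid dehydrogenase, had a large and uncertain difference between CLE and ND (45, 97.9 and 39.1 against 15.8, 8.63 and 44 FPKM, log2 fold change -1.55 ± 0.83, adjusted p = 0.17), against 0.6, 0.169 and 1.0 FPKM in HFD livers. With 3 livers a group, a p that misses the threshold does not show that CLE had reached the ND level.

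Further genes were not called between CLE and ND, and of these Sult1e1, Cyp2b9 and Igfbp2 stood apart in HFD livers. Sult1e1, the estrogen sulfotransferase, measured 0.399, 0.192 and 0.0822 FPKM in ND, 0.334, 0.273 and 0.295 FPKM in CLE and 12, 6.61 and 15.2 FPKM in HFD livers (CLE against ND 0.09 ± 0.28, adjusted p = 0.81). Cyp2c29, a CAR-responsive P450, measured 259, 316 and 260.5 FPKM in the ND livers and 271, 216 and 298 FPKM in the CLE livers (log2 fold change -0.1 ± 0.2, adjusted p = 0.73). Cyp2b9, a female-predominant P450, measured 0.105, 0.415 and 1.14 FPKM in ND, 1.54, 8.68 and 1.8 FPKM in CLE and 71, 113 and 61.2 FPKM in HFD livers, and the CLE livers all lay above the ND livers without passing the test (adjusted p = 0.092), although a pseudocount of 0.1 gave a call (log2 fold change 2.57, adjusted p = 0.039). Igfbp2, an IGF-binding protein that falls in obesity, measured 462, 279.9 and 417 FPKM in the ND livers and 419.7, 749 and 473 FPKM in the CLE livers and 170.0, 118 and 161 FPKM in HFD livers (CLE against ND 0.49 ± 0.23, adjusted p = 0.13).

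**Figure D5:**
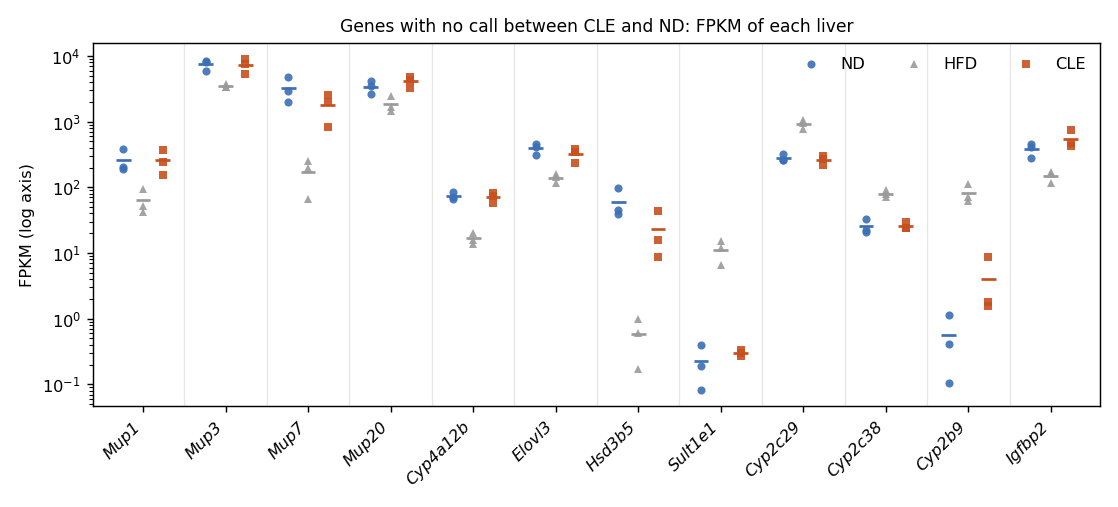
FPKM on a log axis in each ND, HFD and CLE liver for 12 genes that were not called between CLE and ND. Points are single livers and short bars are means of 3: the CLE points of Cyp4a12b lie between 58.3 and 80.6 FPKM, beside the ND points at 65.9 to 83.4 and above the HFD points at 13.6 to 20.4.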

How the data were processed

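Messenger RNA of 12 livers, 3 in each of 4 labelled groups (ND, HFD, LU and CLE), was sequenced as paired reads of 100 bases. Per the labels' processing notes and the methods, reads were aligned with TopHat2 2.0.12 and Bowtie2 2.2.3, and transcripts were assembled and quantified with Cufflinks 2.2.1. The authors deposited one FPKM value per transcript and library. Factors from DEGES and edgeR are named in the methods, and whether the deposited FPKM values include them is not given in the sources used here. The genome build is not given there either. Of 76916 known transcripts, 87.6% had the start and end of GENCODE M21 on GRCm38, which supplied names, coordinates and GC content. The table holds 152210 transcripts of an assembly of 30 samples, and 6316 without a gene name were left out. Depth is unknown, so counting error could not be put into intervals, and zeros may be estimates that failed.

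FPKM values were summed per gene name, and 11566 genes with a mean of at least 0.5 over the 12 livers were tested on log2(FPKM + 1) with limma 3.58.1 in R 4.3.3 (variance trend, one coefficient per group, all 12 livers, 12.8 degrees of freedom, two-sided, adjusted p threshold 0.05). This scale shrinks the changes of genes with low FPKM. Of 1138 entries in 45 gene lists, 1009 were tested, 62 were below 0.5 FPKM, 46 had no row and 21 shared a row with another gene of the locus. The members and lists were chosen with earlier results of these data known, so lists are described by counts and medians without a test of their own. Some list members are counted but not reported here by name. Genes named by size were the 12 with the largest rise and the 12 with the largest fall among called genes whose groups did not overlap, with a mean of at least 1 FPKM and no predicted or pseudogene symbol. On simulated data, a log2 shift of 1.5 was recovered for 191 of 200 genes and one of 0.75 for 145 of 200 among 11566 tested in CLE against ND, with 11 and 4 other genes called. The simulated noise was normal and independent between genes, with no differences of scale or GC content between libraries. Shifted genes had a mean log2(FPKM + 1) of at least 1. These numbers therefore do not give the error rate of calls in the real livers. Alternatives changed the pseudocount, filter, scaling, transcripts used, GC correction, samples in the fit and replicate block. Promoters came from RefSeq on GRCm38.p6. Versions of the drawing tools were matplotlib 3.10.9 and numpy 2.4.6.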

Additional observations from a re-analysis of the deposited data

How the results depend on the processing

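Of the 3119 genes called, the count was 1948 with equal summed FPKM, 1809 with the 6 livers alone, 1989 after the GC correction, and 1594 to 3681 when 1 liver was left out, the extremes being without ND mouse 4 and without CLE mouse 2. The 2416 higher calls became 1576 at a mean of at least 5 FPKM, 1219 with median-of-ratios scaling, 1167 with quantile normalization, 1137 with equal summed FPKM, 1450 with the 6 livers alone, 1463 from the transcript with the highest mean, 1331 from known transcripts only, 871 after the GC correction, and 1277 to 2577 with 1 liver left out. The 703 lower calls became 1618, 1540, 359 and 1118 with median-of-ratios scaling, quantile normalization, the 6 livers alone and the GC correction, and 286 to 1104 with 1 liver left out. Members of the gene lists together had 217 higher calls, against 128, 139 and 112 with median-of-ratios scaling, equal summed FPKM and the GC correction, and 91 lower calls, against 148 with median-of-ratios scaling and 57 to 109 with 1 liver left out. The causes of these shifts were not tested.

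ND and CLE mice share only the numbers 2 and 4, and the deviations of same-numbered mice correlated at −0.28 and −0.10 over 7241 genes, so the numbers were not taken to pair the mice. With a replicate block over those mice, 1061 genes were called, 912 higher and 149 lower, with 123 higher and 42 lower list members. The block with the GC correction gave 570, 313 higher and 257 lower, with 77 higher list members.

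Of 114 called genes named here, 109 to 111 stayed called with the other 3 scalings of whole libraries, 106 after the GC correction, 114 with a pseudocount of 0.1, 105 with no filter on low values, 103 with the 6 livers alone, 97 to 110 with 1 liver left out, 87 with the replicate block and 85 with the block and the GC correction. Over known transcripts alone 102 of 111 stayed called, and in the transcript with the highest mean 93 of 113. Of 31 named genes that were not called, 7 were called with the replicate block and 0 to 4 under each other alternative. In the transcript with the highest mean alone, Clock turned to 0.45 and Tef to −0.15 on the log2 scale, neither past the threshold, and the cause was not tested. Summing by M21 gene, an alternative chosen after seeing the data, gave 3197 calls and kept 113 of the 114. Depth is not known and limits what can be said of genes near 0.5 FPKM.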

Other observations

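Interferon-stimulated genes were split in CLE against ND. Rsad2 (viperin), an antiviral enzyme, measured 10.2, 8.31 and 11.6 FPKM in the ND livers and 5.77, 2.16 and 3.41 FPKM in the CLE livers (log2 fold change -1.27 ± 0.24 (SE), adjusted p = 0.005), and Ifit1, an antiviral RNA-binding protein, fell from 10.8, 12 and 12.1 to 6.35, 2.76 and 6.5 FPKM (log2 fold change -1.09 ± 0.22 (SE), adjusted p = 0.007). Bst2 (tetherin), a membrane protein that holds back virus particles, rose from 125, 126 and 121 to 176, 245 and 254 FPKM (log2 fold change 0.84 ± 0.15 (SE), adjusted p = 0.0041). The calls of these 3 genes held under all scalings.

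Iron storage and uptake genes were higher in part. Fth1, the ferritin heavy chain, measured 1054, 1094 and 999 FPKM in the ND livers and 1581, 1925 and 1563 FPKM in the CLE livers (log2 fold change 0.68 ± 0.13 (SE), adjusted p = 0.0046), and Tfrc, the transferrin receptor, rose from 4.02, 4.91 and 5.18 to 11.4, 6.99 and 9.21 FPKM (log2 fold change 0.82 ± 0.19 (SE), adjusted p = 0.011). Hamp, the hormone hepcidin that lowers iron export, measured 689, 414 and 827 FPKM in the ND livers and 572, 1769.5 and 923 FPKM in the CLE livers (adjusted p = 0.17). Summed erythroid markers with a row were 51.7 to 61.5 FPKM in ND and 70.4 to 98.9 FPKM in CLE livers, and their part in the Tfrc value was not tested. Among 18 iron and metallothionein genes 6 were higher and 1 lower, and 4 and 1 held under all scalings. The 1 lower call was lost without ND mouse 2, ND mouse 3, CLE mouse 4 or CLE mouse 11, and the lower count was 2 without CLE mouse 2.

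Of 20 cell cycle genes, 7 were higher and 0 lower, with 2 held under all scalings, the replication licensing genes Mcm3 (0.892, 1.32 and 1.12 FPKM in the ND livers and 4.19, 2.56 and 3.65 FPKM in the CLE livers, log2 fold change 1.07 ± 0.14 (SE), adjusted p = 0.0011) and Mcm5 (log2 fold change 0.67 ± 0.15 (SE), adjusted p = 0.0084). The count was 3 without ND mouse 4 and 4 without ND mouse 2 or CLE mouse 11. Mki67, the proliferation marker, was called (log2 fold change 0.47 ± 0.16 (SE), adjusted p = 0.049) at 0.106, 0.191 and 0.168 FPKM in ND and 0.896, 0.392 and 0.533 FPKM in CLE livers, but lost the call whichever of the 6 livers was left out, with an adjusted p of 0.11 without ND mouse 2.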
